A study of Mus musculus with 38 samples.

Results

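The genes described here are the 7 mouse genes of the platelet-derived growth factor (PDGF) family: the receptors Pdgfra and Pdgfrb, the receptor-like gene Pdgfrl, and the ligands Pdgfa, Pdgfb, Pdgfc and Pdgfd. They were chosen by name, and all 7 were found among the 25746 genes of the RNA tables; all 7 also passed the filter on low values that left 15659 genes for testing. Their RNA was followed in 29 RNA-seq libraries of Tcf21 lineage cells, each made from 5000 cells sorted from mouse adipose tissue, and the open chromatin around them in 9 ATAC-seq libraries, in which the Tn5 transposase cuts accessible DNA. Wild-type (WT) RNA libraries came from mice at postnatal day 12 (P12, n = 2), 3 weeks (3W, n = 7) and 6 months (6M, n = 2) on regular diet (LabDiet #5001), and from mice given high-fat diet (HFD, Teklad #TD.06414) from 6 weeks of age for 1 week (1W HFD, n = 4) or 12 weeks (12W HFD, n = 5). Tcf21 knockout (KO) libraries numbered 5 at 3W, 2 after 1W HFD and 2 after 12W HFD. The ATAC-seq set held 3 libraries of WT 3W and 2 each of KO 3W, WT 1W HFD and WT 12W HFD. Tamoxifen, which switches on the Cre recombinase MerCreMer, is listed for WT and KO alike, at 75 mg/kg per day for adults or 100 µg per day for neonates, with no record of which mice got which. What drives MerCreMer, the mouse strain and the deleted part of Tcf21 were not given in the sources used here. Regular-diet cells of the ages of the diet groups were not analysed here, so diet and age cannot be told apart in any comparison of a diet group with 3W or 6M. The diet groups also differ from each other in age.

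The receptor genes lie on mm10 at chr5:75152292-75198215 (Pdgfra, ENSMUSG00000029231), chr18:61045150-61085061 (Pdgfrb, ENSMUSG00000024620) and chr8:40926212-40990785 (Pdgfrl, ENSMUSG00000031595). The ligand genes lie at chr5:138976014-138997370 (Pdgfa, ENSMUSG00000025856), chr15:79995874-80014977 (Pdgfb, ENSMUSG00000000489), chr3:81036416-81214040 (Pdgfc, ENSMUSG00000028019) and chr9:6168584-6378850 (Pdgfd, ENSMUSG00000032006).

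PDGF ligands are secreted dimers that bring receptor chains together on the cell surface and switch on their tyrosine kinases. PDGF-A and PDGF-C act mainly through the alpha receptor, PDGF-B through both receptors, and PDGF-D mainly through the beta receptor; PDGF-C and PDGF-D are secreted as latent forms that proteases must cut. In fat tissue Pdgfra is a standard marker of fibroblast-like progenitors, some of which become adipocytes, while Pdgfrb is best known from pericytes and other mural cells of vessels and is also found on progenitors. Pdgfrl encodes a secreted protein that resembles the ligand-binding part of the receptors and has no kinase.

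RefSeq promoter windows (build GRCm38.p6, the same assembly as mm10) were matched for 4 of the 7 genes. The 250 bases before the start are printed for the 3 whose window lies outside the gene's own span, which leaves out Pdgfa. They show starts that differed in the ATAC-seq data: a peak lay over the window in 9 of 9 libraries for Pdgfra and Pdgfd and in 7 of 9 for Pdgfc. They read 5′ to 3′ on the plus strand, at chr5:75152001-75152250, chr3:81036166-81036415 and chr9:6168236-6168485, and capitals mark the 1 motif match found in them, a TEAD-type GGAATG.
Pdgfra: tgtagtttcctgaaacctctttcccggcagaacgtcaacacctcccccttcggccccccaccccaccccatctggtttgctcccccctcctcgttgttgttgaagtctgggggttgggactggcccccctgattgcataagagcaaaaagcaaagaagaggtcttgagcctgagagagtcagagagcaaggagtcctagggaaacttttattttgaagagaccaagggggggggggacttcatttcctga
Pdgfc: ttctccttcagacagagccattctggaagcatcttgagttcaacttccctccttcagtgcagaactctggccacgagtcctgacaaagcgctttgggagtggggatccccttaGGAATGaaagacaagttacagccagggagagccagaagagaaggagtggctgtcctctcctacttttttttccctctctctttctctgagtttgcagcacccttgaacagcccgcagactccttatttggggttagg
Pdgfd: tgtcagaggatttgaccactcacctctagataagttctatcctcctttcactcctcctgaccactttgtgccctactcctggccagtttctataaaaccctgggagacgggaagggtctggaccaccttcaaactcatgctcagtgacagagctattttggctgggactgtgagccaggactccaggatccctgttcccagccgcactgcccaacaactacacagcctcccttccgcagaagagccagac

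The letters searched, on both strands and in windows running 250 bases before to 50 after the start, were CAGCTG (an E-box bound by bHLH factors, the class of Tcf21), TGANTCA (AP-1), GGAATG (TEAD) and GGGCGG (the GC box of Sp1). Of 32817 promoter windows of that length, 16.3% held the E-box letters, 7.81% the AP-1 letters, 14.7% the TEAD letters and 35.6% the GC box. GGAATG stood at -137 and, on the other strand, at +39 of the Pdgfc start. The Pdgfa windows, under a peak in 9 of 9 libraries, held a GC box at -60 of one start and at -93 and -86 of the other, on the strand opposite to the gene in the last pair. None of the 4 letter sets was in the Pdgfra or Pdgfd window. The upstream 250 bases were 54.4% G or C for Pdgfra, 50.8% for Pdgfc and 53.6% for Pdgfd, against 66.4% and 72.4% for the 2 Pdgfa starts. Over all promoter windows, 43.8% lay under a peak in every library and 43.1% under none.

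The RNA values are TPM, a level per transcript length scaled within a library. Library sums lay between 918008 and 969385 TPM, 10894 to 12825 genes reached 1 TPM, and read depth is not recorded, so no counting interval can be given. Tcf21 itself was not at 0 in any KO library: it read 20.01 to 60.9 TPM in KO 3W against 37.6 to 109 in WT 3W, 8.10 and 16.4 against 11.3 to 47.4 at 1W HFD, and 5.67 and 1.64 against 5.86 to 13.5 at 12W HFD. KO and WT libraries overlapped at 3W and 1W HFD and did not at 12W HFD. Within the 5 pairs that the titles number at 3W, each KO library was below its WT partner, at 46.7% to 57.5% of its Tcf21 level. Genotypes were taken from the sample titles, since the separate genotype field matched them in 16 of 38 samples. Read in reverse sample order, that field matched the titles in all 38. The 10 fibroblast and adipose progenitor markers, led by Dcn at 10335 TPM or more in every library, summed to 24125 to 40205 TPM, so their summed RNA was high throughout. Such a sum does not show that each marker was kept or that the cells were of the labelled lineage. Macrophage markers were low at 3W and high later: the 10 summed to 54.5 to 135 TPM in WT 3W, 85.2 to 309 in KO 3W, 282 to 445 in WT 1W HFD, 2758 to 5610 in WT 12W HFD, 2078 to 6120 in KO 12W HFD and 1399 and 3746 in 6M. This is RNA of whole sorted populations, in which fewer cells of a type and less RNA per cell cannot be told apart. The sources used here do not say whether replicates are separate mice, so p-values here measure spread between libraries.

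Pdgfra was a high and steady gene of these cells. It stayed between 63.9 and 188 TPM in all 29 libraries, a 2.95-fold span, the narrowest of the 7 genes. The P12 libraries read 63.9 and 84.3 TPM. WT 3W libraries ran from 104 to 188 TPM with a median of 143, so no WT 3W library was as low as either P12 library. The change from P12 (74.1 ± 14.4 TPM, SD, n = 2) to 3W (147 ± 29.7, n = 7) was 0.97 ± 0.25 (log2 of TPM + 1, ± SE; limma adjusted p = 0.0470). That call stands at the edge of the threshold: the adjusted p was 0.340 without P12 replicate 1, 0.0664 without P12 replicate 2, and 0.0591, 0.0568, 0.0815, 0.0676 and 0.0516 without WT 3W replicates 1, 2, 4, 5 and 6. Endothelial markers fell over the same interval, from a sum of 597 and 283 TPM to 38.5 to 93.4 TPM (5 of 9 markers past the threshold), and their part in the result was not tested.

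After 1W HFD the 4 WT libraries read 85.5, 104, 105 and 88.9 TPM of Pdgfra, at or below the low end of the 3W range. The difference from 3W was -0.59 ± 0.20 and did not pass (adjusted p = 0.0653), except with median-ratio scaling (0.0465), with array weights (0.0253) or without WT 3W replicate 3 (0.0384). After 12W HFD the WT libraries read 122, 132, 134, 184 and 139.8 TPM, all above the 4 libraries of 1W HFD. Set against 3W the 12W HFD difference was -0.04 ± 0.19 (adjusted p = 0.932; the 95% interval runs from -0.42 to 0.35), and its sign turned in 4 alternatives. The 6M libraries lay together at 99.6 and 102 TPM, below every 3W library (-0.51 ± 0.25, adjusted p = 0.2097). In KO cells Pdgfra read 71.9, 152, 97.8, 149 and 179 TPM at 3W, 110 and 96.9 at 1W HFD, and 171 and 121 at 12W HFD. KO and WT libraries overlapped at each of the 3 times. In the order of group means WT 3W, KO 12W HFD, WT 12W HFD and KO 3W came first, then KO 1W HFD, 6M and WT 1W HFD, and P12 last. Only the last step, from WT 1W HFD to P12, was larger than the SD of both its groups.

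Pdgfrb was present in every library at a lower level than Pdgfra. P12 libraries read 20.4 and 10.2 TPM, and WT 3W libraries 13.2 to 34.0 TPM with a median of 21.8. The WT 1W HFD libraries read 18.9, 35.1, 50.9 and 31.6 TPM and the WT 12W HFD libraries 32.8, 24.0, 29.4, 63.9 and 41.8 TPM. The diet groups thus reached above the 3W range but overlapped it. Their differences from 3W were 0.56 ± 0.34 at 1W HFD (adjusted p = 0.354) and 0.73 ± 0.32 at 12W HFD (adjusted p = 0.137). At 6M the libraries read 15.7 and 27.4 TPM, inside the 3W range. KO libraries read 9.36, 17.8, 41.2, 34.2 and 28.9 TPM at 3W, 38.3 and 27.7 at 1W HFD, and 41.6 and 58.8 at 12W HFD, so the 12W HFD pair lay above the 3W libraries (1.05 ± 0.45, adjusted p = 0.232). With the replicate number as a block the adjusted p was 0.0318. No step between neighbouring groups in the order of Pdgfrb levels exceeded the SD of its groups. Markers of pericytes and smooth muscle, the classic Pdgfrb-bearing cells, were lower in the older groups (2 of 11 past the threshold at 1W HFD, 3 at 12W HFD and 5 at 6M, against 3W). They summed to 121 to 2744 TPM in WT 3W, 82.9 to 249.9 in WT 1W HFD, 113 to 226 in WT 12W HFD and 33.6 and 86.5 in 6M, where Cspg4, Notch3 and Mcam were under 1 TPM. At P12, where Pdgfrb was lowest, they summed to 2397 and 1554 TPM. Their part in the Pdgfrb levels was not tested.

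**Figure D1:**
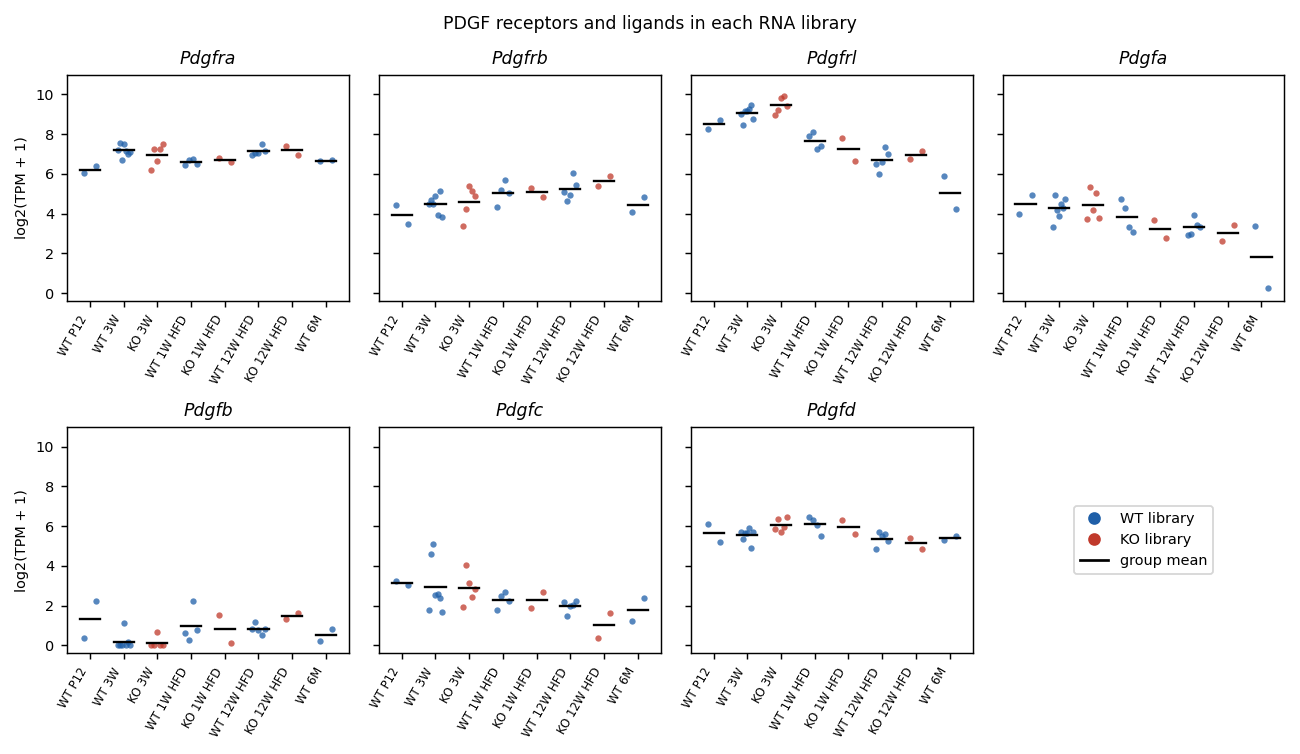
Level of each gene in each of the 29 RNA libraries, as log2(TPM + 1), by group; blue points are WT libraries, red points KO libraries and black bars group means. Pdgfrl falls from 356 to 702 TPM in WT 3W to 17.7 and 58.5 TPM in 6M, Pdgfra stays between 63.9 and 188 TPM, and Pdgfb lies at the foot of the scale.

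The balance of the receptors was read as the log2 ratio of Pdgfra to Pdgfrb (each TPM + 1) within each library. Pdgfra exceeded Pdgfrb in all 29 libraries. Ratios in WT 3W ran from 1.88 to 3.28 with a mean of 2.69 ± 0.51 (SD, n = 7), and the plain TPM ratios averaged 7.11 ± 2.45. The 4 WT 1W HFD libraries read 2.12, 1.54, 1.03 and 1.46, and the 5 WT 12W HFD libraries 1.86, 2.41, 2.15, 1.51 and 1.72. Both diet groups sat lower than 3W with overlap: the difference was -1.15 ± 0.30 (SE) at 1W HFD (two-sided exact permutation p = 0.0121) and -0.76 ± 0.25 at 12W HFD (exact permutation p = 0.0202). Adjusted over the 5 ratio comparisons both came to 0.0505 and did not pass. They passed without WT 3W replicate 6 (adjusted exact permutation p = 0.0238 at 1W HFD and 0.0303 at 12W HFD), the 1W HFD one also without WT 1W HFD replicate 1 (0.0417), and the 12W HFD one without WT 3W replicate 3 (0.0487) or WT 12W HFD replicate 2 (0.0379). WT 12W HFD stood 0.39 ± 0.28 above WT 1W HFD (exact permutation p = 0.190). KO 3W libraries read 2.82, 3.03, 1.23, 2.10 and 2.59, a mean difference from WT of -0.34 ± 0.37 (exact permutation p = 0.361). KO 12W HFD libraries read 2.01 and 1.03, -0.41 ± 0.52 from WT (exact permutation p = 0.333, where the smallest possible is 0.0476), a difference that turned to 0.08 without KO 12W HFD replicate 2. P12 libraries read 1.60 and 2.92, and 6M libraries 2.59 and 1.86.

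**Figure D2:**
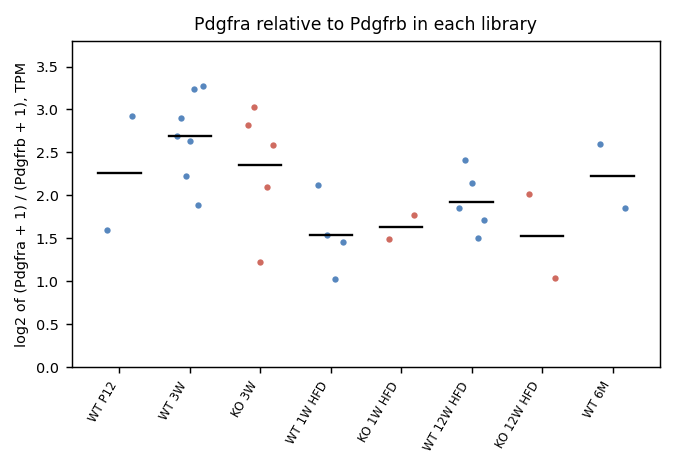
Log2 ratio of Pdgfra to Pdgfrb, each as TPM + 1, in each RNA library by group; blue points are WT, red points KO and black bars group means. Every library lies above 0, and the WT 1W HFD and WT 12W HFD means (1.54 and 1.93) lie below the WT 3W mean (2.69).

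Pdgfrl passed the threshold in 5 comparisons, the most of the 7 genes. It was the highest of the 7 in 21 of 29 libraries, with Pdgfra highest in the other 8, and its levels spanned 54.8-fold. P12 libraries held 311 and 426 TPM and WT 3W libraries 356 to 702 TPM with a median of 574. The WT 1W HFD libraries read 243, 273, 152 and 166 TPM, below every WT 3W library. The WT 12W HFD libraries read 89.5, 62.4, 97.2, 164 and 127 TPM, and the 6M libraries 58.5 and 17.6 TPM. All 5 libraries of 12W HFD and both of 6M thus lay under the lowest 3W library.

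The mean of Pdgfrl was 539.9 ± 115 TPM in WT 3W (n = 7), 208 ± 58.7 after 1W HFD (n = 4), 108 ± 38.9 after 12W HFD (n = 5) and 38.1 ± 28.9 at 6M (n = 2). Pdgfrl fell by 1.38 ± 0.29 on the log2 scale from 3W to 1W HFD, 2.59-fold by means (limma adjusted p = 0.00302). It fell by 2.36 ± 0.27 to 12W HFD, 5.00-fold by means (adjusted p = 1.45e-07). The fall to 6M on regular diet was the deepest, at -3.99 ± 0.37 and 14.2-fold (adjusted p = 7.76e-08). These comparisons share the 3W libraries. Each of these 3 calls held in every alternative tried, with each library left out in turn among them. Macrophage markers, 9 of 10 higher past the threshold at 1W HFD and 10 of 10 at 12W HFD and 6M, moved with this fall, and their part in it was not tested. Fibroblast marker sums were 24125 to 26645 TPM in WT 12W HFD against 24302 to 40205 in WT 3W, with 3 of the 10 markers lower and 2 higher past the threshold.

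Between the older groups, Pdgfrl was higher after 12W HFD than at 6M by 1.64 ± 0.38 (adjusted p = 0.0308), with no overlap of the libraries. That call was lost without 6M replicate 2, the lower of the 2 (0.80, adjusted p = 0.664), and without WT 12W HFD replicate 1 (0.0530), 4 (0.0684) or 5 (0.0638); with median-ratio scaling the change was 1.39 (adjusted p = 0.0959). The median of all genes itself lay 0.22 higher in 12W HFD than at 6M. Against 1W HFD, the 12W HFD level was -0.97 ± 0.31 and just missed the threshold (adjusted p = 0.0580), and the libraries overlapped; it passed without WT 12W HFD replicate 4 (0.0235).

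KO libraries also held less Pdgfrl after diet than at 3W: 495, 584, 912, 968 and 676 TPM at 3W, 225 and 100.4 at 1W HFD, and 105 and 139 at 12W HFD. The KO 1W HFD libraries lay on either side of the 12W HFD ones, so a further fall between these times is not shown. The KO fall from 3W to 12W HFD was -2.53 ± 0.38, 5.96-fold by means (adjusted p = 5.81e-05). At 3W the KO mean of 727 ± 205 TPM stood above the WT mean by 0.41 ± 0.27 with overlapping libraries (adjusted p = 1). By group mean the order was KO 3W, WT 3W, P12, WT 1W HFD, KO 1W HFD, KO 12W HFD, WT 12W HFD and 6M. The steps from WT 3W to P12, from P12 to WT 1W HFD and from WT 12W HFD to 6M exceeded the SD of their groups, and the libraries did not overlap at the last 2 of these.

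Pdgfa, the main ligand of the alpha receptor, was a moderate transcript that ended low. P12 libraries read 15.0 and 29.3 TPM and WT 3W libraries 9.08 to 29.7 TPM with a median of 18.1. WT 1W HFD libraries read 25.4, 18.4, 9.05 and 7.46 TPM, with replicates 1 and 2 inside the 3W range and replicates 3 and 4 below it. WT 12W HFD libraries read 6.62, 6.88, 14.4, 9.72 and 9.15 TPM, with replicates 1 and 2 below the 3W range and replicates 3, 4 and 5 inside it. At 6M one library read 9.23 TPM and the other 0.18 TPM, the lowest Pdgfa value of all. The fall from 3W to 6M was -2.46 ± 0.57 (limma adjusted p = 0.00565) and rested on that library: without 6M replicate 2 it was -0.90 (adjusted p = 0.532), and without 6M replicate 1 it was -4.02. That library alone also set Pdgfa at 6M below 12W HFD (3.09, adjusted p = 0.0120, without 6M replicate 1), which did not pass with both; the lone library is assumed there to vary like the other groups. From 3W to 12W HFD the difference was -0.93 ± 0.42 and did not pass (adjusted p = 0.149), except in a fit of these groups alone (0.0478). KO libraries read 12.1, 38.8, 17.1, 32.2 and 12.9 TPM at 3W, 11.6 and 5.81 at 1W HFD, and 5.09 and 9.58 at 12W HFD. No neighbouring groups in the order of Pdgfa levels differed by more than their SD.

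Pdgfb, the ligand of endothelial cells and platelets, was close to the floor. It was listed at 0 in 8 libraries, all of them from 3W, and reached 1 TPM in 7. Of the WT 3W libraries 5 were listed at 0 and the others at 0.13 and 1.21 TPM; of the KO 3W libraries 3 were at 0 and the others at 0.03 and 0.58 TPM. Without read depths, a value of 0 cannot be taken as absence of the transcript. P12 libraries read 0.31 and 3.67 TPM. WT 1W HFD libraries read 0.56, 0.22, 3.65 and 0.70 TPM and WT 12W HFD libraries 0.76, 1.28, 0.71, 0.46 and 0.77 TPM, higher than most 3W libraries. These differences from 3W, 0.79 ± 0.35 and 0.64 ± 0.33, did not pass (adjusted p = 0.178 and 0.218), although the second did with a pseudocount of 0.1 (0.0413). KO libraries read 1.89 and 0.08 TPM at 1W HFD and 1.54 and 2.08 at 12W HFD, the latter above all WT 12W HFD libraries (0.65 ± 0.47, adjusted p = 1). At 6M Pdgfb read 0.18 and 0.78 TPM.

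Endothelial markers were in the same libraries in part. The 9 summed to 38.5 to 93.4 TPM in WT 3W, 41.2 to 119 in KO 3W, 212, 147, 435 and 159 in WT 1W HFD, 48.3 to 237 in WT 12W HFD and 90.9 and 93.2 in KO 12W HFD. The WT 1W HFD library with the most Pdgfb, replicate 3, also had the highest endothelial sum of its group. At P12 the library with more endothelial RNA (597 TPM) had 0.31 TPM of Pdgfb and the one with less (283 TPM) had 3.67 TPM. Platelet markers summed to 6.66 to 42.9 TPM in WT 3W and 98.9 to 207 TPM in WT 12W HFD. The part of either cell type in the Pdgfb values was not tested.

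Pdgfc, a ligand that needs proteolytic activation, was low except in single libraries. WT 3W ran from 2.17 to 32.9 TPM with a median of 4.85. Replicates 2 and 3, at 23.6 and 32.9 TPM, stood above the other 5, which ended at 4.99. P12 libraries read 8.62 and 7.25 TPM, WT 1W HFD libraries 2.41, 4.66, 5.55 and 3.76, and WT 12W HFD libraries 3.57, 1.82, 2.91, 3.12 and 3.65. The difference from 3W to 12W HFD was -0.97 ± 0.49 (adjusted p = 0.207), within the spread that those replicates give to 3W. At 6M Pdgfc read 1.35 and 4.19 TPM. KO libraries read 2.82, 15.6, 7.83, 4.48 and 6.19 TPM at 3W, 2.71 and 5.42 at 1W HFD, and 0.30 and 2.11 at 12W HFD, so both 12W HFD values were under all of 3W (-1.88 ± 0.70, adjusted p = 0.136; 0.0328 with array weights).

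Pdgfd, the other ligand with a latent form, was the most abundant ligand in every group mean. Its 29 values lay between 27.5 and 87.7 TPM, a 3.19-fold span almost as narrow as that of Pdgfra. P12 libraries read 67.7 and 36.0 TPM and WT 3W libraries 29.1 to 58.4 TPM with a median of 49.3. WT 1W HFD libraries read 87.7, 79.6, 66.5 and 44.6 TPM, 3 of 4 above the 3W range. WT 12W HFD libraries read 27.5, 51.3, 44.2, 47.0 and 37.8 TPM, back within or under it. The 1W HFD difference from 3W was 0.54 ± 0.23 (adjusted p = 0.153), and that of 12W HFD from 1W HFD -0.72 ± 0.25 (adjusted p = 0.0861; 0.0350 with array weights and 0.0344 without WT 1W HFD replicate 4). At 6M Pdgfd read 38.5 and 43.8 TPM.

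KO libraries held 56.6, 80.6, 51.7, 61.8 and 86.4 TPM of Pdgfd at 3W, against a WT range that ended at 58.4. The KO mean of 67.4 ± 15.3 TPM compared with 46.9 ± 9.55 in WT, a difference of 0.51 ± 0.21. It was the 1 member with an unadjusted p under 0.05 in that comparison (0.0232), and the adjusted p over all genes was 1. In the diet groups KO libraries read 78.7 and 47.4 TPM at 1W HFD and 42.0 and 27.7 TPM at 12W HFD. The KO 12W HFD libraries were both under the KO 3W libraries (-0.93 ± 0.31, adjusted p = 0.0799; 0.0320 with array weights).

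The first question of the design is what loss of Tcf21 does to these genes. By limma 0 of 7 members passed at 3W, where 0.0% of all tested genes did, 0 of 7 at 1W HFD (background 0.0255%) and 0 of 7 at 12W HFD (background 0.00639%). The adjusted p was 1 for all 7 in each. An unadjusted p under 0.05 was reached by Pdgfd at 3W and by 0 members at 1W and 12W HFD, against 546, 540 and 570 of 15659 genes. At each of the 3 times 0 genes passed as lower, so Tcf21 itself was not called. Yet within the 5 pairs at 3W each KO library held 46.7% to 57.5% of the Tcf21 of its WT partner. A count of 0 of 7 can thus not be read as no effect of the KO. The fit did not use the pair numbers of the titles, so its intervals bound only what an unpaired comparison could have missed. At 3W the 95% interval of the KO difference was -0.60 to 0.16 for Pdgfra, -0.14 to 0.96 for Pdgfrl and 0.08 to 0.95 for Pdgfd. With 2 KO libraries the later intervals are wider, such as -0.49 to 1.37 for Pdgfrb and -0.55 to 1.02 for Pdgfrl at 12W HFD. Libraries of KO and WT did not overlap for 0 of 7 members at 3W (0.0766% of genes), 0 of 7 at 1W HFD (11.4%) and 1 of 7, Pdgfb, at 12W HFD (9.94%, 4.73% higher). Whether the KO difference itself changed between 3W and the diet groups was tested as an interaction: 0 of 7 members passed at 12W HFD (background 0.0%) and 0 of 7 at 1W HFD (background 0.00639%), each with adjusted p = 1 and 0 members under an unadjusted p of 0.05. The interaction estimate for Pdgfd at 12W HFD was -0.76 ± 0.37.

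**Figure D3:**
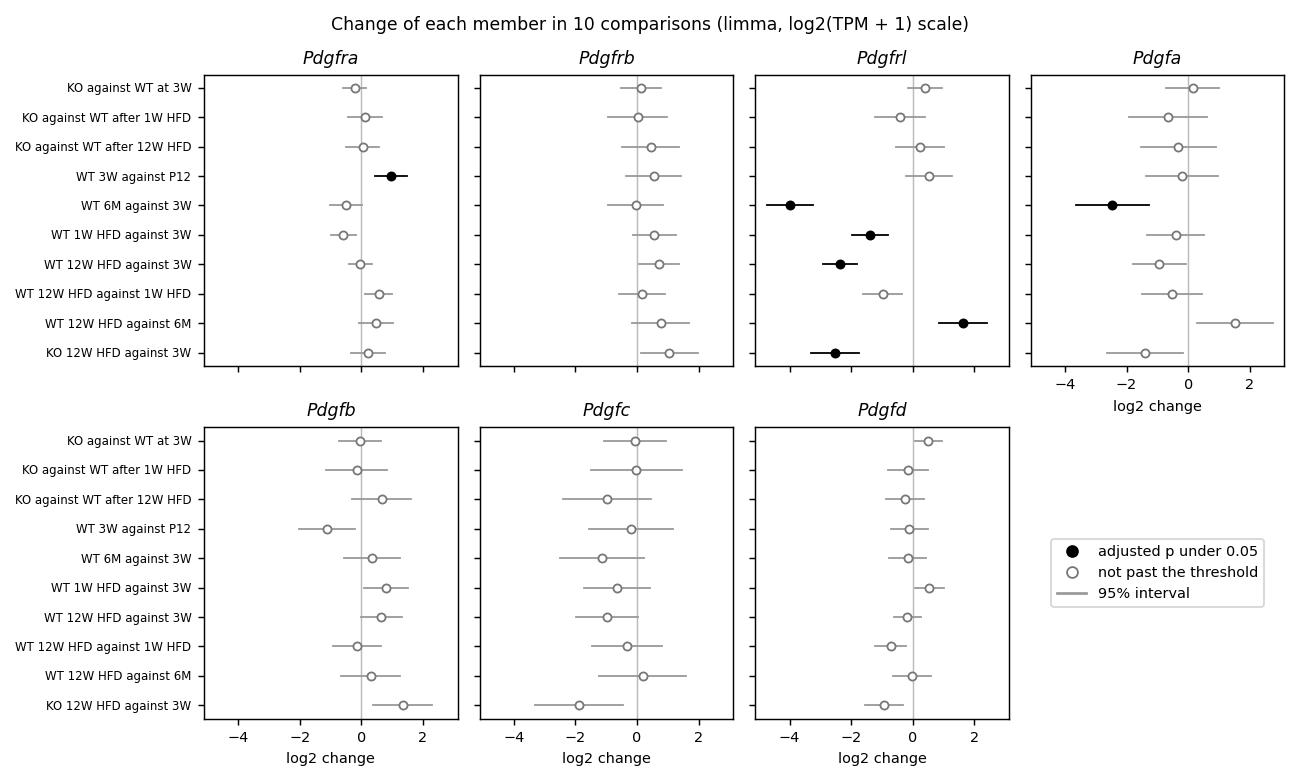
Log2 change of each member (log2 of TPM + 1) in 10 comparisons with its 95% interval, from limma over all 29 libraries; filled points have an adjusted p under 0.05. Pdgfrl has 5 filled points and Pdgfra and Pdgfa 1 each, and all KO against WT intervals except that of Pdgfd at 3W cross 0.

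From P12 to 3W 1 of 7 members passed, Pdgfra, where 1.63% of all genes did (0.626% higher); the groups did not overlap for 1 of 7, again Pdgfra (8.0% of genes, 2.83% higher). From 3W to 6M 2 of 7 passed, Pdgfrl and Pdgfa, both lower, against 10.8% of genes (6.85% lower); the groups did not overlap for 2 of 7, Pdgfrl and Pdgfra (17.3%, 11.9% lower). The median of all genes was -0.24 in that comparison, and with median-ratio scaling, which brought it to -0.03, both calls stayed. After 1W HFD 1 of 7 differed from 3W, Pdgfrl, against 8.03% of genes (3.25% lower). After 12W HFD it was again Pdgfrl alone, 1 of 7 against 14.2% of genes (6.23% lower). In both diet comparisons with 3W the libraries did not overlap for 1 of 7 members, the same Pdgfrl, against 6.02% of genes at 1W HFD (2.31% lower) and 7.59% at 12W HFD (3.05% lower).

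Between 1W and 12W HFD 0 of 7 members passed (5.93% of genes), with 3 under an unadjusted p of 0.05, namely Pdgfra, Pdgfrl and Pdgfd, against 2838 genes; the groups did not overlap for 1 of 7, Pdgfra (10.5%, 4.97% higher). Pdgfra was 0.56 ± 0.21 higher at 12W HFD (adjusted p = 0.137; 0.0403 in a fit of these groups alone). Between 12W HFD and 6M 1 of 7 passed, Pdgfrl, where 0.881% of genes did (0.702% higher), and 2 of 7 did not overlap, Pdgfrl and Pdgfra (20.7%, 16.5% higher). In KO cells 1 of 7, Pdgfrl, passed between 3W and 12W HFD (5.15% of genes, 1.96% lower). There 6 of 7 members, all but Pdgfra, had libraries that did not overlap, where 18.7% of genes did not; 2 of the 6, Pdgfrb and Pdgfb, were on the higher side (9.27% of genes) and 4, Pdgfrl, Pdgfa, Pdgfc and Pdgfd, on the lower (9.46%). All 6 had an unadjusted p under 0.05, but Pdgfrb, Pdgfa, Pdgfb, Pdgfc and Pdgfd did not pass the adjustment (adjusted p from 0.0799 to 0.232).

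The genes most like each member across the 29 libraries were ranked by Pearson r of log2(TPM + 1), a description over libraries that share groups; Pdgfb was too low to rank. By r over all libraries, group differences included, Pdgfrl had the closest companions: Paqr6 (r = 0.93), the neurotrophin receptor gene Ntrk2 (0.92), Actn3 (0.91), Cpz (0.91) and Epha3 (0.91). Paqr6 averaged 74.4 TPM in WT 3W, 5.28 after 12W HFD and 2.90 at 6M. Within groups, after group means were taken out, r for these 5 was 0.41 to 0.71. Pdgfa was most like Adgrl2 (0.80) and Ints7 (0.79), then Pdgfrl itself (0.79; 0.57 within groups), Arhgef25 (0.79) and Fam71a (0.78). Pdgfrb was nearest to Plec, the cytolinker plectin (0.79), Bgn, a matrix proteoglycan (0.78), Lrp1 (0.77), Sgk1 (0.77) and Adcyap1r1 (0.76). Pdgfc went with the insulin receptor gene Insr (0.82), Kcnd3 (0.82), Prdm6 (0.82), Osr2 (0.82) and Bex4 (0.80). Within groups r for these Pdgfc companions was 0.77 to 0.81. All companions were picked by r over these same libraries, which takes in the spread within groups. For Pdgfc that spread includes WT 3W replicates 2 and 3 at 23.6 and 32.9 TPM, so its within-group r cannot be set against that of Pdgfrl. Pdgfd went with the elastic fibre protein Fbln5 (0.77), Arl4a (0.74), Fmo1 (0.72; 0.85 within groups), Cnmd (0.70) and Ogn (0.69). Pdgfra had the loosest set, with Diaph2 (0.71), Ism1 (0.68), Ppp3cc (0.66), the chemokine gene Ccl19 (0.66) and 1700001L19Rik (0.65).

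Around the members, a list of 61 genes, called the pathway list here, was followed. It runs from ligand processing to early response and also holds relatives of the receptors and ligands: Kit, Csf1r, Flt3, the Vegf genes and Pgf. Of the 61 genes 58 were tested, and St14, Nck2 and Flt3 were too low. The counts include the relatives, such as Csf1r, Pgf, Vegfa and Vegfc from 3W to 12W HFD. In KO against WT 0 of 58 passed at any of the 3 times. From 3W to 1W HFD 11 rose and 2 fell (of all genes 4.78% rose and 3.25% fell), with a median change of 0.08 over the 58 against 0.02 over all genes. From 3W to 12W HFD 5 rose and 8 fell (of all genes 7.94% and 6.23%; median -0.01 against -0.04). From 3W to 6M 4 rose and 9 fell (of all genes 4.0% and 6.85%; median -0.28 against -0.24). From 1W to 12W HFD 1 rose and 6 fell (of all genes 3.54% and 2.39%; median -0.22 against -0.05). From P12 to 3W 2 rose, Vegfc and Lrp1 (0.626% of all genes), and 12W HFD was lower than 6M in 1 (0.179% of all genes), Fyn, a Src family kinase that docks on the receptors. In KO cells 4 rose and 3 fell from 3W to 12W HFD, where 3.19% and 1.96% of all genes did.

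Of the 5 tested proteases of ligand processing, 4 passed in at least 1 comparison. The share of all genes that did so was not counted. In the single comparison of 3W with 12W HFD it was 14.2%. Plau, the urokinase that can activate PDGF-D, averaged 1.11 TPM in WT 3W (0.08 to 3.48), 13.1 after 1W HFD, 15.2 after 12W HFD and 10.6 at 6M. Its rise was 2.88 ± 0.47 at 1W HFD (limma adjusted p = 0.000416), 2.96 ± 0.44 at 12W HFD (1.38e-05) and 2.5 ± 0.61 at 6M (0.00783), and 2.64 ± 0.63 in KO cells from 3W to 12W HFD (0.00921). Plat, the tissue plasminogen activator that cuts PDGF-C, fell from 745 TPM at 1W HFD to 464 at 12W HFD (-0.68 ± 0.19, adjusted p = 0.0314), a call that ended when any of 7 of the 9 libraries was left out (adjusted p up to 0.0908). Its higher level at 1W HFD than at 3W (445 TPM; 0.78 ± 0.18, 0.00703), a value outside the rule for named genes and chosen after it was seen, kept its call with each library left out. Pcsk5 and Pcsk6 are proprotein convertases, the enzyme class that trims the PDGF-A and PDGF-B precursors. Pcsk5 went from 77.9 TPM at 3W to 18.5 at 12W HFD (-1.98 ± 0.26, adjusted p = 2.30e-06) and 16.0 at 6M (-2.11 ± 0.36, 0.000271), and from 89.5 to 15.4 in KO cells at 12W HFD (-2.44 ± 0.38, 7.93e-05). Pcsk6 went from 13.0 TPM at 3W to 48.5 at 1W HFD (2.18 ± 0.48, adjusted p = 0.00454) and 44.2 at 6M, while at 12W HFD it was 14.6.

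Among the proteins that bind ligand or receptor outside the cell, Sparc, a matrix protein that binds PDGF, was very high at 3W and lower later. It averaged 12184 TPM in WT 3W, 11921 after 1W HFD, 4602 after 12W HFD (-1.43 ± 0.26, adjusted p = 0.000184) and 3740 at 6M (-1.71 ± 0.35, 0.00201). Lrp1, an endocytic receptor that works with the beta receptor, rose from 98.4 TPM at P12 to 191 at 3W (0.93 ± 0.24, adjusted p = 0.0420) and in KO cells from 212 TPM at 3W to 396 at 12W HFD (0.93 ± 0.25, 0.0223). Its WT means after diet were 290.1 TPM at 1W HFD and 279.7 at 12W HFD.

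Inside the cell, Pik3r1, the PI3-kinase subunit that docks on activated receptors, fell from 62.3 TPM at 3W to 17.4 at 12W HFD (-1.77 ± 0.21, adjusted p = 3.98e-07) and stood lower at 6M too (-2.53 ± 0.29 from 3W, 2.12e-06), and in KO cells from 62.0 to 20.5 (-1.53 ± 0.31, 0.00155). Of the 10 negative regulators on the list, 3 rose at 1W HFD and 0 fell, where 4.78% and 3.25% of all genes did. The 3 were the MAP kinase phosphatase Dusp6 (26.2 to 70.0 TPM, 1.49 ± 0.32, limma adjusted p = 0.00396), Spry1 (28.0 to 63.3 TPM, 1.198 ± 0.31, 0.0143) and the tyrosine phosphatase Ptpn1 (24.5 to 44.8 TPM, 0.93 ± 0.26, 0.0270). Dusp6 was also higher at 12W HFD (1.68 ± 0.30, 82.3 TPM), and Ptpn1 rose in KO cells from 23.0 to 82.4 TPM (1.81 ± 0.35, 0.00110). At 6M 1 of the 10 negative regulators fell (6.85% of all genes did), Spry4 (16.6 to 6.70 TPM, -1.18 ± 0.33), named after its value was seen. Among the kinases, Map2k1 rose at 1W HFD (1.12 ± 0.32), Mapk3 fell (-0.80 ± 0.22), and Akt2 was lower at 12W HFD (-1.10 ± 0.28). Nck1, an adaptor, rose at 1W HFD (0.88 ± 0.21) and Stat3 rose in KO cells at 12W HFD (1.09 ± 0.32). At 6M Grb2 was higher (1.49 ± 0.37) and Akt2 lower (-1.42 ± 0.38). All early response genes on the list, Fos, Junb, Egr1, Myc, Ccnd1 and Srf, stayed short of the threshold in each comparison.

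The VEGF-family relatives Pgf, Vegfa and Vegfc were lower after 12W HFD than at 3W. Pgf went from 17.1 TPM at 3W and 15.2 at 1W HFD to 0.93 at 12W HFD (-3.002 ± 0.56 from 3W, adjusted p = 0.000293) and 1.58 at 6M. Vegfa fell from 8.02 to 1.55 TPM at 1W HFD (-2.08 ± 0.41, 0.00182) and stood at 2.20 at 12W HFD (-1.44 ± 0.38, 0.00892). Vegfc rose from 4.78 TPM at P12 to 28.1 at 3W (2.25 ± 0.38, 0.00116) and was 11.7 at 12W HFD (-1.18 ± 0.28, 0.00340). Csf1r, the related receptor of macrophages and the neighbour of Pdgfrb on chromosome 18, rose from 2.44 TPM at 3W to 9.18 at 1W HFD (1.72 ± 0.54, 0.0448) and 27.99 at 12W HFD (3.09 ± 0.50, 4.28e-05), beside the macrophage marker sums given above. Leaving out single libraries ended 11 of the 13 calls between 3W and 6M (Pcsk5 and Pik3r1 kept theirs), 7 of 13 at 1W HFD, 2 of 13 at 12W HFD (Lrp1 and Mapk3), 3 of 7 between 1W and 12W HFD (Pcsk6 and Plat among them), 4 of 7 in KO cells (Lrp1, Plau, Stat3 and Vegfc), Lrp1 from P12 to 3W and Fyn against 6M. Those ended at 1W HFD included Csf1r, Lrp1, Map2k1, Mapk3, Ptpn1 and Spry1.

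**Figure D4:**
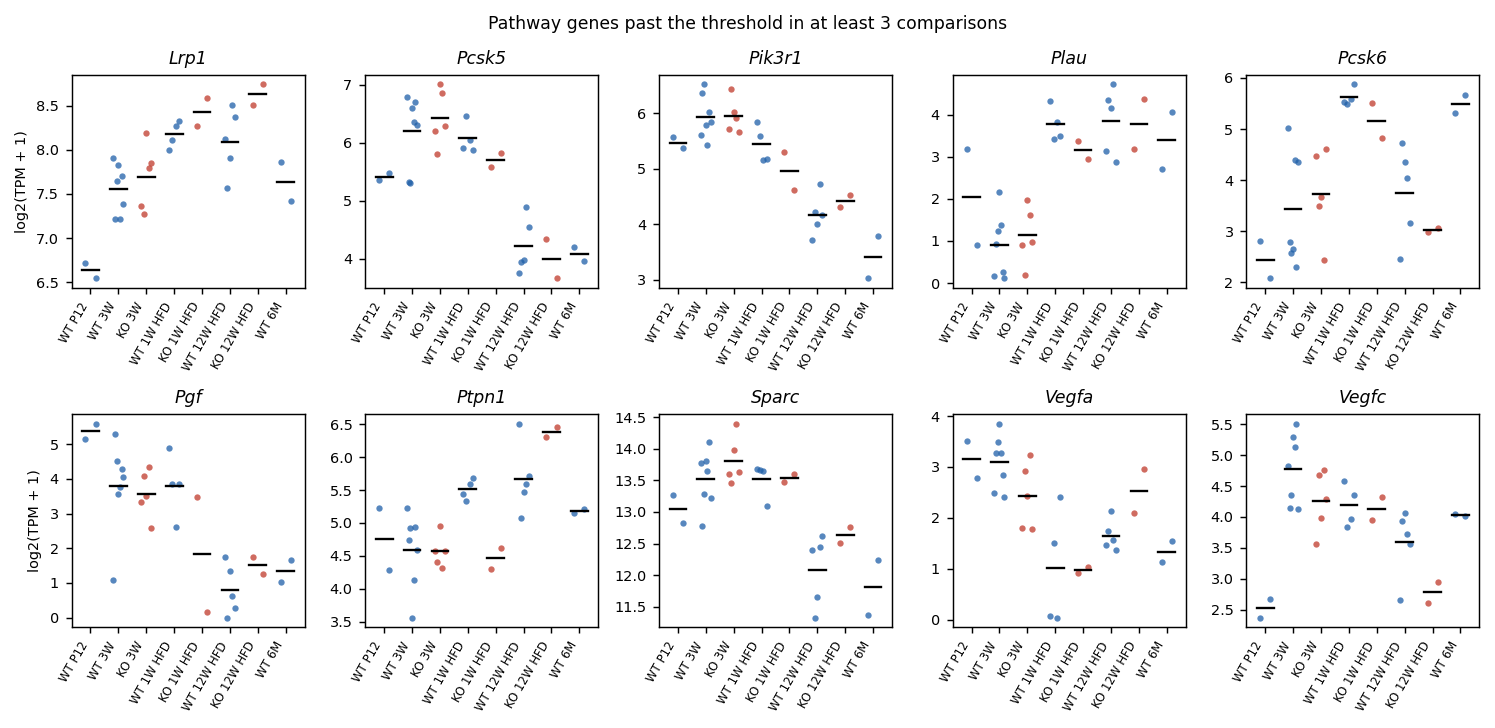
Level, as log2(TPM + 1) on an axis of its own in each panel, in each RNA library by group. The 10 genes are those of the pathway list, relatives included, that passed the threshold in at least 3 comparisons. Blue points are WT, red points KO and black bars group means. Plau is low at 3W (mean 1.11 TPM) and higher after diet and at 6M, while Pcsk5, Pik3r1 and Sparc are high at 3W and low after 12W HFD and at 6M.

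In the ATAC-seq lists the start end of every member lay in a merged peak region. Peaks of the 9 libraries, called per library by the authors, were merged where they overlapped by at least 1 base into 123191 regions, of which 104 lay within 50 kb of a member. A merged region over the gene's start end had a peak somewhere in it in 9 of 9 libraries for all 7 genes, also for Pdgfc, whose promoter window itself was under a peak in 7 of 9. Those of the receptors were broad: 10436 bases over the Pdgfra start (chr5:75147505-75157940) and 10763 bases over the low-coordinate end of Pdgfrb (chr18:61038803-61049565), where 0.959% and 0.895% of all merged regions are as wide and the median is 1351 bases. That of Pdgfa had 7262 bases (chr5:138992337-138999598; 2.18% as wide) and that of Pdgfd 5405 (chr9:6167115-6172519; 4.36%). Pdgfb, the gene closest to the floor in RNA, still had a region of 4223 bases at its high-coordinate end (chr15:80011352-80015574; 7.67%). Pdgfrl and Pdgfc had the smallest, with 2752 bases (chr8:40925583-40928334; 18.6%) and 2515 bases (chr3:81035829-81038343; 21.9%). These shares are of all merged regions, and regions over the starts of other genes were not set apart. How many gene starts have a merged region with a peak in all 9 libraries was not counted. By the stricter promoter window, 43.8% of all windows lay under a peak in every library.

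The authors' fold over background of the strongest peak in each start region ranged from 30.3 to 51.7 over the 9 libraries for Pdgfra and from 26.1 to 65.2 for Pdgfrb. It ranged from 15.7 to 37.6 for Pdgfrl, 15.0 to 39.0 for Pdgfa, 11.9 to 28.9 for Pdgfd, 6.79 to 30.2 for Pdgfc and 6.32 to 12.8 for Pdgfb. Within its own list the Pdgfra start peak stood between percentiles 86.6 and 93.3 by q and the Pdgfb one between 48.5 and 65.0. The Pdgfrl start peak, whose gene fell 5.00-fold in RNA, stood at percentiles 80.4 and 77.5 in WT 12W HFD and 70.8 to 82.3 in WT 3W. The WT 12W HFD lists were longer (93314 and 82580 peaks) than those of WT 3W (77862, 55990 and 58675). Weak peaks added to a list raise the percentile of a strong one, so these percentiles do not show whether the peak changed.

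Of the 104 regions 37 were present in all 9 libraries, 35.6% against 29.03% of all merged regions, and 28 in a single library. By gene it was 11 of 21 for Pdgfrb, 9 of 18 for Pdgfrl, 6 of 22 for Pdgfra, 6 of 16 for Pdgfa, 2 of 10 for Pdgfb, 2 of 10 for Pdgfc and 1 of 7 for Pdgfd. The Pdgfrb window also holds Slc6a7, Cdx1, Csf1r and Hmgxb3 and the Pdgfrl window Slc7a2 and Mtus1, so their regions need not belong to the member. Regions in every WT 12W HFD and no WT 3W library numbered 8 (9.72% of all merged regions have this pattern): 2 each near Pdgfa, Pdgfb and Pdgfd and 1 each near Pdgfra and Pdgfrb. Those of Pdgfd (chr9:6175261-6175963 and chr9:6186456-6188465) and Pdgfra (chr5:75179733-75180502) lay in the gene body. Those of Pdgfb (chr15:80024522-80026215 and chr15:80051290-80054872) and Pdgfa (chr5:138944643-138946668 and chr5:139017457-139018650, the latter over Prkar1b) lay outside it, and that of Pdgfrb (chr18:61131386-61132367) lay over Csf1r and Hmgxb3. The reverse, every WT 3W and no WT 12W HFD library, numbered 0 (background 0.614%). This balance depended on the length of the lists, which held 55990 to 93314 peaks: with the 50000 strongest peaks of each list it was 0 (background 5.51%) against 5 (background 2.83%), 4 of them near Pdgfa and 1 near Pdgfc. Without WT 3W replicate 1, WT 12W HFD replicate 1 or WT 12W HFD replicate 2 the 8 became 13, 13 and 16, and the background 14.9%, 17.7% and 17.3%. Near Pdgfrl 0 regions had either pattern in the full lists. Every KO 3W and no WT 3W library held 1 region, the one below Pdgfa (background 2.98%), and the reverse was 0 (background 0.0503%). The 1 became 9 without KO 3W replicate 1 (background 8.13%), 8 without KO 3W replicate 2 (12.0%), 3 without WT 3W replicate 1 (7.56%) and 2 without WT 3W replicate 2 (3.7%).

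**Figure D5:**
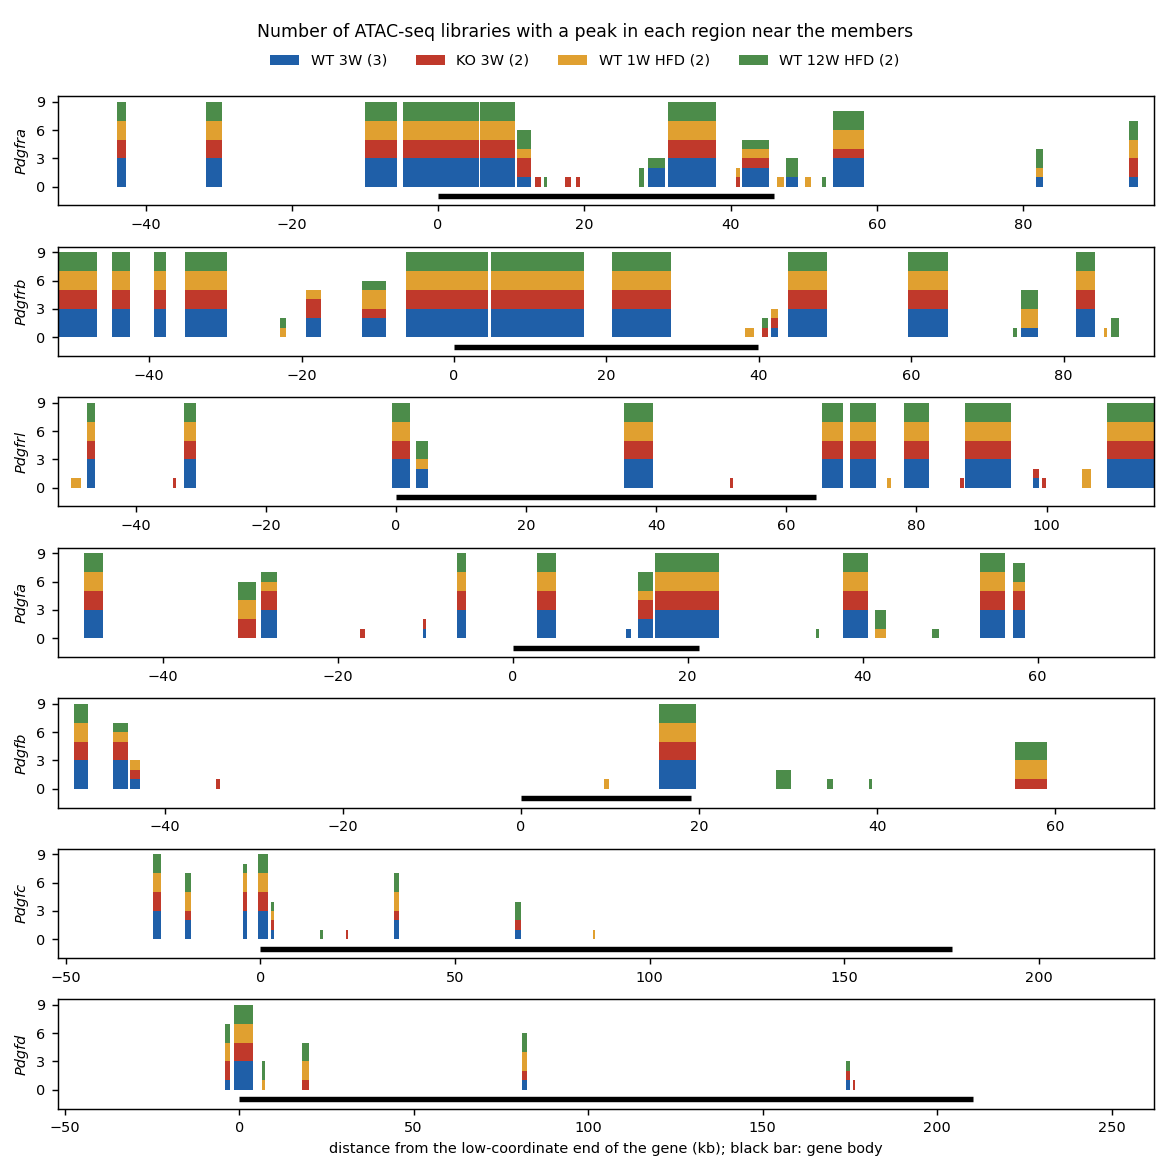
Merged ATAC-seq regions within 50 kb of each member, placed by distance in kb from the low-coordinate end of the gene, with the gene body as a black bar; the height is the number of the 9 libraries with a peak, stacked by group. Regions at full height of 9 stand over the start end of all 7 genes, and 11 of the 21 regions near Pdgfrb reach that height.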

How the data were processed

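RNA-seq was made from 29 libraries and ATAC-seq from 9, in the groups given by the sample titles. The deposited RNA values are TPM per gene, as made by the authors; the submitters' processing notes list mm10, MACS2, Bowtie2 2.3, FastQC, Trim Galore 0.6, RSEM and STAR 2.5.3a, without roles. WT and KO came in separate tables with the same genes; their column sums overlap. How strand was handled was not given in the sources used here. Depth is unknown. The deposited peak lists, 1 per library, carry the authors' score, ratio (fold over background), −log10 p and −log10 q and a summit position, and were used only inside their own list.

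The 15659 genes that reached 1 TPM in 2 or more libraries were fitted as log2(TPM + 1) with limma 3.58.1 in R 4.3.3: 8 group means, 21 residual degrees of freedom, eBayes with trend, two-sided, Benjamini-Hochberg over all genes tested, threshold 0.05. The pseudocount of 1 shrinks fold changes of low transcripts. The ± of a TPM or ratio is the SD, that of a difference the SE. The receptor ratio was tested with exact permutation (scipy 1.17.1). Peaks were merged with pandas 2.3.3 and checked with bedtools 2.31.1; the fit was tested on simulated data. All members were named, pathway genes past the threshold up to 10 per comparison by size of change, and the 5 nearest genes by r for members averaging 1 TPM. Members, lists and tests were chosen with earlier results of these data known. Alternatives were another pseudocount, filter, scaling, array weights, a fit of the compared groups, the replicate block, leaving out each library, and other peak cut-offs and windows; windows around summits and a subset by the first letter of peak names were added after seeing the data. Results of some genes on the pathway list are not reported here.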

Additional observations from a re-analysis of the deposited data

Results flagged for a closer look

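Of 32 groups of 4 to 10 libraries checked for a single value far from the rest, 2 had one, and chance gives about 1 in 20 where values are normally spread. Both concern Pdgfb at 3W, where 5 of 7 WT and 3 of 5 KO libraries were listed at 0, so that rate does not hold for them. WT 3W replicate 4 read 1.21 TPM where the next highest of the 7 libraries read 0.13, and KO 3W replicate 3 read 0.58 TPM where the next of 5 read 0.03. KO 3W replicate 3 had the highest endothelial marker sum of its group (119 TPM, the others 41.2 to 101), and WT 3W replicate 4 had 70.4 TPM within a range of 38.5 to 93.4; their part was not tested.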

How the results depend on the processing

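The falls of Pdgfrl from 3W to 1W HFD, 12W HFD and 6M and in KO cells passed in every alternative, and KO against WT and both interactions gave 0 members in all. Other counts moved; the cause was not tested. From P12 to 3W the count was 0 with a pseudocount of 0.1, a 5 TPM filter, rescaled columns, array weights, the compared groups alone or the replicate block (0 to 1 leaving out libraries). From 3W to 6M it was 1 with the compared groups alone or the block (1 to 2 leaving out libraries). At 1W HFD it was 2 with median-ratio scaling or array weights (1 to 2). At 12W HFD it was 2 with a pseudocount of 0.1 or the groups alone. Between 1W and 12W HFD it was 2 with array weights and 1 with the groups alone (0 to 1). Between 12W HFD and 6M it was 0 without a filter, with median-ratio scaling, the groups alone or the block (0 to 2). In KO cells from 3W to 12W HFD it was 3 with array weights and 2 with the groups alone or the block. Over all alternatives the pathway counts were 0 to 3 from P12 to 3W, 3 to 14 to 6M, 6 to 15 at 1W HFD, 11 to 17 at 12W HFD, 4 to 14 from 1W to 12W HFD, 0 to 1 against 6M and 3 to 9 in KO cells. Pdgfra at 12W HFD against 3W turned to 0.027 with median-ratio scaling, and to 0.027, 0.019 and 0.016 without WT 3W replicate 2, WT 3W replicate 4 and WT 12W HFD replicate 1, with a range leaving out libraries of -0.13 to 0.027. Pdgfrl in KO against WT at 1W HFD turned to 0.16 without KO replicate 2 (-1.002 to 0.16 leaving out libraries). Leaving out libraries, the receptor ratio differences ran from -0.90 to -0.66 at 12W HFD, -1.35 to -0.98 at 1W HFD and -0.90 to 0.084 for KO at 12W HFD. Regions in all libraries were 15 within 5 kb. Regions of 12W HFD only were 4 of 74 at −log10 q of 5 (background 10.3%) and 3 of 48 within 5 kb (9.72%). With the 50000 strongest peaks they were 0 of 62 (5.51%), and leaving out libraries 8 to 16. Regions of 3W only were 5 of 62 with the 50000 strongest peaks (background 2.83%) and 1 of 158 with summit windows (0.844%). Leaving out libraries they were 0 to 2. With only libraries whose peak names begin with A, 4 of 98 regions were of 3W only (background 9.19%). In that setting 11 of 98 were of 12W HFD only (background 12.8%). The titles number pairs at 3W without saying what a pair shares, and no block was used: the 6 correlations of same-pair deviations ran from -0.13 to 0.48, 5 of them above 0.1, and each of 5 KO libraries correlated best with its own pair; as a block they gave 0 members.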
